A study of Mus musculus with 12 samples.

Results

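The genes that fold, modify and quality-control secreted proteins in the endoplasmic reticulum (ER) were followed in sorted dermal papilla (DP) cells, the mesenchymal cells at the base of the hair follicle. The set was chosen by gene name: 37 genes for ER chaperones, protein disulfide isomerases, collagen folding and modification enzymes, the translocon, the unfolded protein response (UPR) and ER-associated degradation (ERAD). Of these, 36 were present by name in both gene tables, out of 14986 genes that the tables share. The remaining name, Leprel1, is an earlier symbol of the prolyl 3-hydroxylase gene P3h2, whose values are given once and not counted. DP cells were sorted by YFP from control and dMF1/2 mice at postnatal day 14 (P14) and P16, in anagen, with 3 mice in each of the 4 groups and 1 RNA-seq library per mouse. The dMF1/2 mutant is the Fgfr1/Fgfr2 double mutant, Cor-cre/+; Fgfr1Flox/Flox; Fgfr2Flox/Flox, in which the Corin-cre line deletes both receptors in the DP after birth. The control was labelled wild type, and the study's methods give its controls as either Cor-cre/+; Fgfr1Flox/+; Fgfr2Flox/+ or Flox/Flox mice without Cre. Cells of both genotypes were isolated through a Cre-dependent ROSA26 YFP reporter, so the sort takes only cells that carried Cre activity, after overnight trypsin and a collagenase step. Of the control genotypes given, only the Cor-cre/+ one, heterozygous for both floxed receptors, could therefore yield sorted cells. The study does not state which control was sorted.

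Secreted and membrane proteins enter the ER through the Sec61 channel and fold there with Hsp70 and Hsp90 family chaperones, lectin chaperones and disulfide isomerases. Procollagen needs further helpers: prolyl and lysyl hydroxylases modify the chains, and the collagen-specific chaperone Hsp47, encoded by Serpinh1, binds the triple helix. When unfolded protein accumulates, the sensors IRE1 (Ern1), PERK (Eif2ak3) and ATF6 raise the output of this machinery through the transcription factors XBP1, ATF4 and cleaved ATF6. The DP is a matrix-rich mesenchyme, so collagen and other matrix proteins are taken here as the load of this machinery, read from their RNA.

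A sequence feature that several members share is the ER stress response element (ERSE): the letters CCAAT, any 9 bases, CCACG, which cleaved ATF6 binds together with NF-Y. RefSeq promoter windows, 250 bases before to 50 after each start on GRCm38.p6, were found for 30 of the 36 members. On either strand, 7 of these 30 windows held an ERSE (23.3%), against 0.137% of the 27025 genes with a window. ERSE-II, ATTGG, any base, CCACG, was in the windows of Dnajb11, where it lies after the start, and Herpud1, and in 0.0444% of all genes. The UPR element core TGACGTG was in the Hspa5 window only among members (2.22% of all genes), and the ATF4-type element TGATG, any base, AAT in none (1.08% of all genes). The members were listed as ER chaperone and UPR genes, so these shares are not independent of the choice of genes. The matches that lie wholly before the start are shown, with the ERSE or ERSE-II in capitals and the rest in lower case, 5′ to 3′ on the strand of the gene. Capitals that open with CGTGG are matches on the other strand, and Hsp90b1 has 2 matches.
Hspa5 (chr2:34772013-34772055, + strand): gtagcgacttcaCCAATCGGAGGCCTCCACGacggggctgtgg
Hsp90b1 (chr10:86705626-86705668, - strand): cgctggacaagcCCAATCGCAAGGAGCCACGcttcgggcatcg
Hsp90b1 (chr10:86705521-86705563, - strand): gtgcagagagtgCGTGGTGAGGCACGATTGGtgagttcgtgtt
Calr (chr8:84847063-84847105, - strand): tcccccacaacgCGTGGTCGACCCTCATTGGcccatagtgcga
Canx (chr11:50325788-50325830, - strand): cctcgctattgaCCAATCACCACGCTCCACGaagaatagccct
Pdia6 (chr12:17266479-17266521, + strand): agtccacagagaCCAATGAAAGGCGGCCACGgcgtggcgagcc
Dnajc3 (chr14:118937815-118937857, + strand): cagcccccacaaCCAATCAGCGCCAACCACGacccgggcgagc
Creld2 (chr15:88819508-88819550, + strand): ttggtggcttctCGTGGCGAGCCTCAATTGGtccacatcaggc
Herpud1 (chr8:94386365-94386399, + strand): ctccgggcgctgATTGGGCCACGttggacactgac

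The letters searched were absent from the windows of the members that rose from P14 to P16 in control DP and had a window, namely Dnajb9, Edem1 and Ern1; Atf6, which also rose, had no window. Their 250 bases before the start are shown because these members passed as higher at P16. Of the 9 members with an ERSE or ERSE-II, 1 passed in that comparison (Dnajb11, which fell), and of the 21 without either, 4 did, beside 14.5% of all genes. Capitals mark CCACG on either strand, the ATF6-contacting end of the ERSE, which is common: 28.3% of all 32851 windows hold it before the start.
Dnajb9 (chr12:44210069-44210318, - strand): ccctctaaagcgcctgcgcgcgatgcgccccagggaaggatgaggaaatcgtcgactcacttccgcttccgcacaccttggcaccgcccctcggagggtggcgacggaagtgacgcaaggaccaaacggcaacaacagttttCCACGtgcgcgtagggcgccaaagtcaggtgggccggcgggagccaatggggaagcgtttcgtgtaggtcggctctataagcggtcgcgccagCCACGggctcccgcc
Edem1 (chr6:108828391-108828640, + strand): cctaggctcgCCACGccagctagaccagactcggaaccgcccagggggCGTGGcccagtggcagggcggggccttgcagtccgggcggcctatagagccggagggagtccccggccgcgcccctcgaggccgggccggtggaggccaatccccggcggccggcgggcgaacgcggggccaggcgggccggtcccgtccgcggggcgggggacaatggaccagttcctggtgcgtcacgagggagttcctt
Ern1 (chr11:106487797-106488046, - strand): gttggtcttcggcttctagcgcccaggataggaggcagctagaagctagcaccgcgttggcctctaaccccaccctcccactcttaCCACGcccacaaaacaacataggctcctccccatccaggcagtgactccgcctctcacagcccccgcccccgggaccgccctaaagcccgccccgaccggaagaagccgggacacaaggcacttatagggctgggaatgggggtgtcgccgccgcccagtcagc

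The 12 libraries held 19302358 to 29860750 reads on protein-coding genes. Both P14 replicate 1 libraries stood apart from the other 10: Col1a1, the most abundant gene, took 7.06% of the reads in the control and 9.15% in the dMF1/2 library, against 13.1 to 17.7% in the others. Results that draw on P14 are therefore also given without these libraries where that changes them. Fgfr1 had 7745 to 9981 normalized reads in P14 control and 6391 to 7405 in P14 dMF1/2, a log2 difference of -0.40 (adjusted p = 0.501, limma), and -0.50 at P16 (adjusted p = 0.130), while Fgfr2 differed by -0.11 and -0.01 (adjusted p = 0.974 and 0.978, limma). Reads of a whole gene include exons outside the deleted part, so they do not check the deletion. DP markers summed to 1719 to 8413 CPM (reads per 1000000 protein-coding reads) in every library. Markers of other cells were low, at 14.4 to 53.5 for hair follicle keratinocytes, 23.7 to 38.7 for melanocytes, 26.0 to 77.9 for endothelium and 4.46 to 15.03 for immune cells, and Krt35, Dct, Tyrp1 and Ptprc were at 0 in at least 1 library. Dermal sheath and dermal fibroblast markers reached 549 to 1586 and 1444 to 2271 CPM.

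Per exon length, the members ran from rank 17 to rank 9941 of 14958 genes with a length. Serpinh1 was the highest, at a mean of 644 RPKM (CPM per kb of exon) over the 4 groups and so the collagen-specific chaperone stood above every general one. The disulfide isomerase P4hb, which is also the beta subunit of collagen prolyl 4-hydroxylase, followed at 224, then the lectin chaperone Calr at 173, the Hsp70 chaperone BiP (Hspa5) at 171 and the isomerase Pdia3 at 111. Neither Calr and Hspa5 nor Hsp90b1 (85.7) and the transcription factor gene Atf4 (85.2) kept one order in all 4 groups. Among the hydroxylases, the lysyl hydroxylase Plod2 had the highest mean (33.7), with group means from 15.6 to 50.4. P4ha1, Plod1, Plod3 and P4ha2 lay close together at 20.5 to 23.7, and P4ha3 was the lowest member at 1.25. Of the sensors, Eif2ak3 stood at 10.5, Atf6 at 7.58 and Ern1 at 4.08. The ATF4 target and pseudokinase Trib3 was at 1.94, and its lowest group mean, 0.897, was that of P16 control. Ppib, the cyclophilin B of the prolyl 3-hydroxylation complex, came out at 14.4; its exons overlap those of Snx22 on the opposite strand over 496 bases, and the strand setting of the counting is not given in the sources used here. Likewise Plod2 overlaps Gm38391 over 346 bases, Sec61a1 Gm44170 over 388 and Plod3 Znhit1 over 315, each on the opposite strand.

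**Figure D1:**
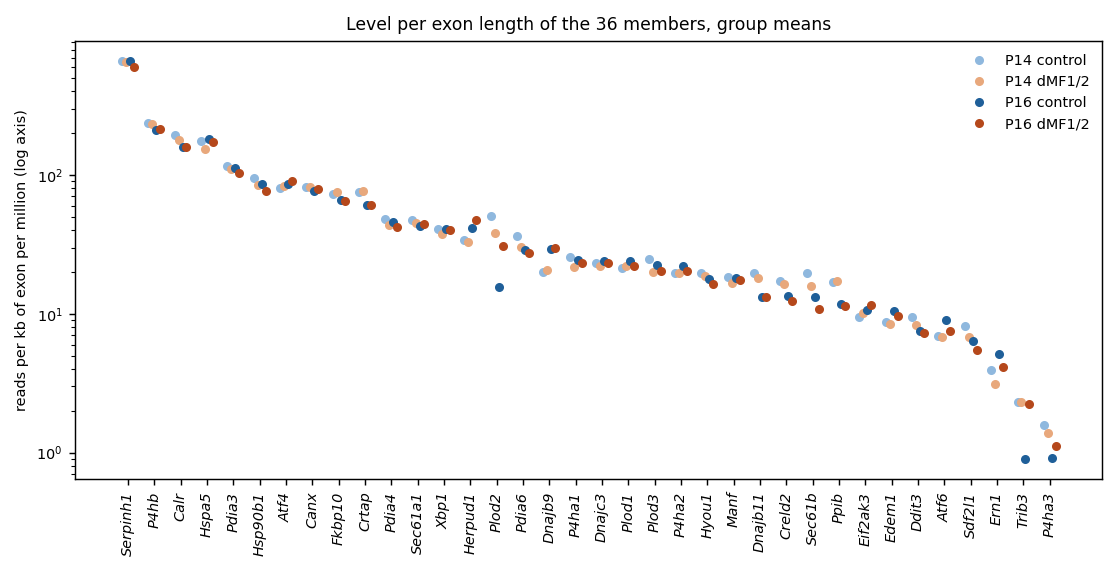
Level of the 36 members in RPKM, on a log axis, with 1 point per group mean of 3 libraries and members ordered by their mean over groups. Most members have their 4 points close together, while Plod2 and Trib3 have a P16 control point (15.6 and 0.897) far below the other groups.

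At P14 none of the 36 members passed an adjusted p of 0.05 between dMF1/2 and control DP (limma), 2 had an unadjusted p under 0.05, beside 7.32% of all genes, and DESeq2 also called 0. Over all genes tested 0.0525% passed with limma and 1.55% with DESeq2. Most log2 differences were near 0, with a median of -0.03 beside 0.00 for all genes. Of the 36 differences 25 were below 0, as were 12 of the 15 chaperones and isomerases, beside 48.7% of all genes; without both replicate 1 libraries these counts were 28 and 14, beside 49.1%. The 95% interval lay within a 2-fold change in either direction for 34 members, the exceptions being P4ha2 and Plod2. The interval was -0.50 to 0.20 for Hspa5, -0.42 to 0.13 for Hsp90b1 and -0.78 to 0.76 for Serpinh1. The smallest unadjusted p belonged to Plod3, which glycosylates as well as hydroxylates collagen lysines. Control libraries held 2542, 2456 and 2462 normalized reads of Plod3 and dMF1/2 libraries 2109.7, 2027 and 2012, without overlap, a log2 difference of -0.28 ± 0.07 (SE) with an adjusted p of 0.365 (limma). Ern1, the IRE1 sensor, had 749, 622 and 734 in control and 544, 587 and 612 in dMF1/2, also without overlap (-0.27 ± 0.11, adjusted p = 0.628, limma). P4ha1, Pdia4 and Pdia6 were the other 3 members without overlap, all lower in dMF1/2. That makes 5 of 36 members, beside 12.7% of all genes.

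At P16 Trib3 was the member that differed between genotypes. Trib3 encodes a pseudokinase induced by ATF4 and CHOP. It had 36.7, 62.2 and 42.6 normalized reads in control and 104.8, 105.4 and 128.1 in dMF1/2. Every dMF1/2 library was above every control library, and the log2 difference was 1.27 ± 0.22 (SE), a 2.41-fold higher level, with an adjusted p of 0.0216 (limma). Of all genes 4.32% passed, and 2.18% of all genes passed as higher in dMF1/2, so 1 of 36 members is no excess. Over 16 alternatives the adjusted p ran from 0.000143 to 0.0999, and the call depended on single libraries: the adjusted p (limma) was 0.0781 without P16 control replicate 3, and 0.0560, 0.0597 and 0.0999 without dMF1/2 replicates 1, 2 and 3. The RNA of its inducers Atf4 and Ddit3 had intervals close to 0, which does not show the level or activity of their proteins. Atf4 had 5336, 4549 and 5251 in control and 4909.7, 5077 and 5294 in dMF1/2, overlapping groups with a log2 difference of 0.02 and an interval of -0.19 to 0.23. Ddit3, which encodes CHOP, differed by -0.10 with an interval of -0.36 to 0.15.

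The lysyl hydroxylase Plod2, which modifies the collagen telopeptides that form stable cross-links, had the next largest difference at P16. Control libraries held 1026, 2978 and 2209 normalized reads and dMF1/2 libraries 3888, 3212 and 4696. The groups did not overlap, but the control values spread widely. The log2 difference of 1.04 ± 0.35 (SE; interval 0.24 to 1.84) did not pass (adjusted p = 0.148, limma).

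The sensors Atf6 and Ern1 lay on the other side. Atf6 had 2243, 1929 and 2036 normalized reads in control and 1592, 1624 and 1726 in dMF1/2, and Ern1 had 1100.1, 961 and 1054 against 949.5, 702 and 762. Neither gene overlapped between genotypes. Their log2 differences, -0.33 ± 0.09 and -0.38 ± 0.12 (SE), did not pass (adjusted p = 0.0776 and 0.139, limma), but with the replicate number as a block both did (adjusted p = 0.0424 and 0.0317, limma), and DESeq2 also called Atf6 (adjusted p = 0.0369). Over 16 alternatives the adjusted p ran from 0.0369 to 0.216 for Atf6 and from 0.0291 to 0.327 for Ern1. With the block 10.4% of all genes passed, and with DESeq2 8.35%. The third sensor, Eif2ak3, stood at 1568 to 1622 in control and 1592 to 1689 in dMF1/2, a log2 difference of 0.04 with the narrow interval -0.13 to 0.21.

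None of the chaperones and isomerases passed at P16. All 11 general chaperones and all 4 disulfide isomerases had a log2 difference below 0, from -0.21 (Hsp90b1) to -0.02 (Canx), beside a median of 0.00 for all genes, and 0 passed (limma and DESeq2). That sign was the same under each scaling tried, but it was not uniform over same-numbered pairs. Hspa5, Canx, Hyou1, Dnajb9, Sdf2l1, Manf, P4hb and Pdia6 were higher in dMF1/2 in at least 1 pair. The other chaperones and isomerases were lower in all 3. Sec61b, a translocon subunit, had 413, 439 and 390.3 normalized reads in control and 294, 409.6 and 288 in dMF1/2 (-0.34, adjusted p = 0.260, limma). BiP had 15020.2, 18204 and 23176 normalized reads in control and 16693, 16368 and 18659.7 in dMF1/2, overlapping groups with a difference of -0.10 (interval -0.48 to 0.27). Serpinh1 had 36909.7, 42568 and 39868 in control and 30587, 40544 and 34119.7 in dMF1/2, again with overlap (-0.19, interval -0.52 to 0.15). Over the 36 members 30 differences were below 0, beside 50.8% of all genes, and the median was -0.10. In pairs of the same replicate number, 15 members were lower in dMF1/2 in all 3 pairs, beside 24.1% of all genes, and 4 were higher in all 3 (Plod2, Trib3, Eif2ak3 and Herpud1), beside 24% of all genes. At P14 these counts were 9 and 1, beside 16.7 and 17.8% of all genes. Only 5 members had groups that did not overlap (Trib3 and Plod2 higher, Atf6, Ern1 and Edem1 lower), beside 24.5% of all genes. P3h2, not counted, differed by -0.23 (adjusted p = 0.504, limma).

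Summed DP markers differed at P16 as well: they took 1719, 3202 and 3011 CPM in control and 4228, 4323 and 6590.1 in dMF1/2. Of 12 listed markers 3 passed as higher (Rspo3, Alpl and Prom1), beside 2.18% of all genes, and 1 as lower (Crabp1), beside 2.14%. The dissociation stress list summed to 14683 to 19597 in control and 12926 to 15272 in dMF1/2. From this list Atf3 passed as lower in dMF1/2 (log2 difference -0.65, adjusted p = 0.0224, limma). Whether either had a part in the differences of Trib3, Plod2, Atf6 and Ern1 was not tested. In bulk libraries, fewer cells of a type and less RNA per cell cannot be told apart.

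**Figure D2:**
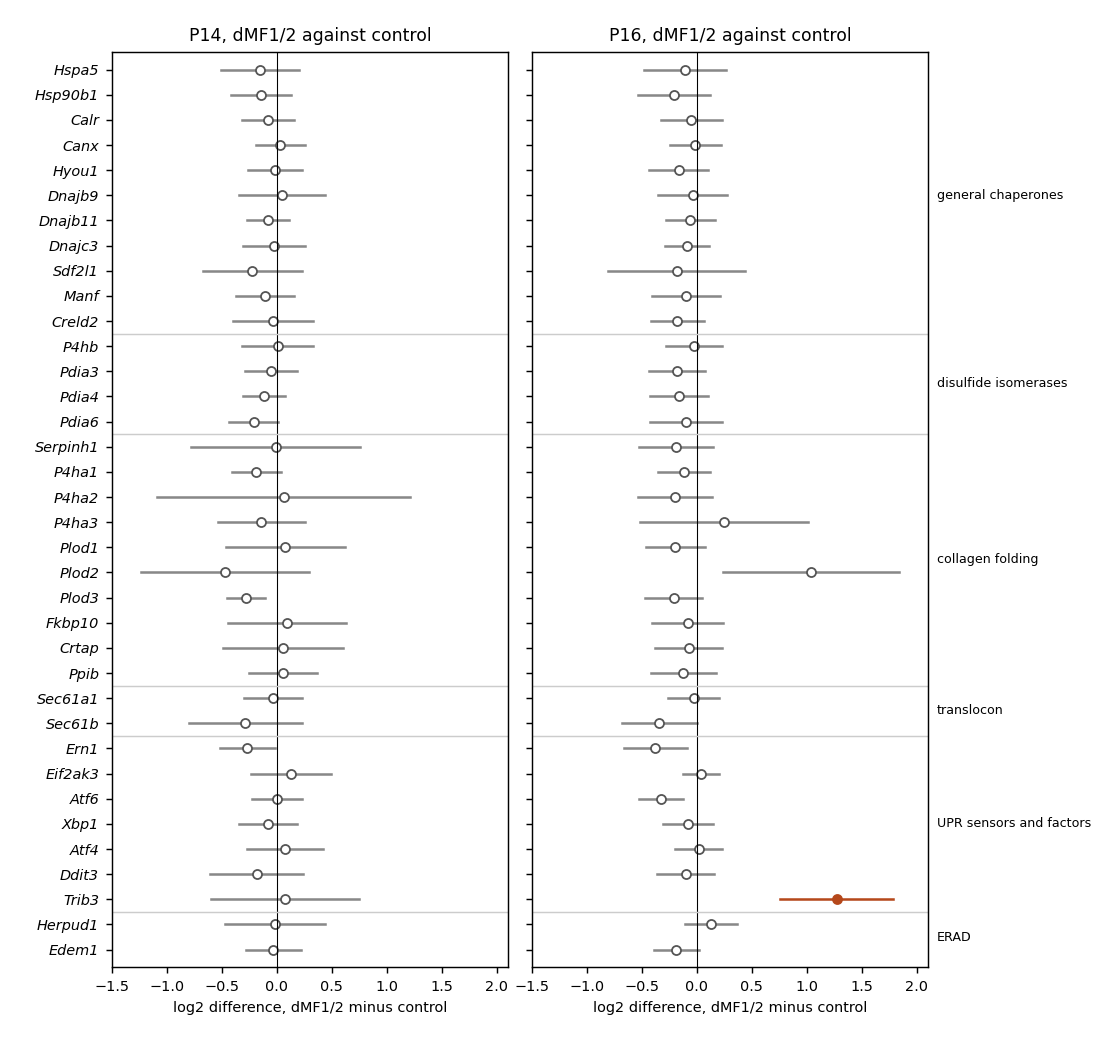
Log2 difference between dMF1/2 and control of each of the 36 members at P14 and P16 (points) with its 95% interval (lines), from 3 libraries per group, filled where the adjusted p was under 0.05. At P14 none is filled; at P16 Trib3 (1.27) is, Plod2 (1.04) lies beside it unfilled, and Atf6 and Ern1 (-0.33 and -0.38) have intervals that end below 0.

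From P14 to P16, while follicles of both genotypes were labelled anagen, 7 members changed in control DP, 4 up and 3 down. They are given on a scale common to both days, since the tables were normalized separately. Over all genes 14.5% passed in this comparison, 6.26% higher and 8.28% lower, so 7 of 36 is near the background. The days did not overlap for 13 members, beside 36% of all genes. The 4 that rose are a sensor pair, a co-chaperone and an ERAD factor. Ern1 had 759, 631 and 744 normalized reads at P14 and 1084, 945 and 1041 at P16 (log2 difference 0.53 ± 0.12 SE, adjusted p = 0.0152, limma). Atf6 had 1336, 1423 and 1595 at P14 and 2211, 1896 and 2011 at P16 (0.49 ± 0.09, adjusted p = 0.00646, limma). For both sensors every P16 library was above every P14 library. Dnajb9, which encodes the BiP co-chaperone ERdj4 and is a standard target of IRE1 and XBP1, had 989, 1123 and 1341 at P14 and 1722, 1652 and 2069.9 at P16. It rose 1.58-fold (0.66 ± 0.16, adjusted p = 0.0238, limma). Edem1, which hands misfolded glycoproteins to degradation, rose 1.29-fold without overlap between days (0.37 ± 0.10, adjusted p = 0.0277, limma). Xbp1 itself moved by 0.11 (interval -0.12 to 0.34), and reads of the whole gene do not show how much of it was spliced. Herpud1, another ERAD gene of the UPR, differed by 0.38 and did not pass (adjusted p = 0.136, limma).

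The 3 that fell were Plod2, Trib3 and Dnajb11. Plod2 went from 7294, 5274 and 5201 normalized reads at P14 to 1011, 2928 and 2182 at P16, a level 0.319 times that of P14 (log2 difference -1.65 ± 0.38 SE, adjusted p = 0.0180, limma). Trib3 went from 118.9, 137.0 and 69.2 to 36.1, 61.2 and 42.1 (-1.18 ± 0.27, adjusted p = 0.0171, limma). In both genes all P16 libraries were below all P14 libraries. Dnajb11, a BiP co-chaperone with an ERSE-II in its window, went from 1356, 1503 and 1452 to 957, 1101 and 1085 (-0.46 ± 0.09, adjusted p = 0.00824, limma). Ppib, at -0.42, missed the threshold (adjusted p = 0.0636, limma) but was called by edgeR and DESeq2. The major chaperones did not pass: the difference was 0.13 for Hspa5 (interval -0.23 to 0.49), -0.07 for Hsp90b1 (-0.37 to 0.23), -0.15 for Calr and 0.03 for Canx. Over the members the median was 0.02, beside 0.01 for all genes. Without both P14 replicate 1 libraries it was -0.04, beside 0.00 for all genes.

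In dMF1/2 DP 2 members passed from P14 to P16, both lower, beside 5.8% of all genes in either direction and 3.97% lower. The days did not overlap for 9 members, beside 27.6% of all genes. Dnajb11 had 1329, 1316 and 1424 normalized reads at P14 and 926, 1095 and 980.4 at P16 (log2 difference -0.44 ± 0.09 SE, adjusted p = 0.0143, limma). The interaction for Dnajb11 was 0.02, with an interval of -0.25 to 0.28. Ppib had 1197, 1346 and 1431 at P14 and 804, 1069 and 769.6 at P16 (-0.60 ± 0.14, adjusted p = 0.0286, limma). Plod2 and Trib3 did not pass in this genotype. Plod2 had 6611, 2599.7 and 4351 at P14 and 3801, 3158 and 4608 at P16, groups that overlapped (-0.15, interval -0.98 to 0.69). Trib3 had 121.1, 126.0 and 86.4 at P14 and 102.4, 103.7 and 125.7 at P16 (0.01, interval -0.59 to 0.60). Dnajb9 differed by 0.57 and did not pass (adjusted p = 0.0645, limma), with an interaction of -0.09 (interval -0.60 to 0.42). Ern1 differed by 0.41 and did not pass (adjusted p = 0.0615, limma), with an interaction of -0.11 (interval -0.48 to 0.25). DESeq2 called both (adjusted p = 0.0250 for Dnajb9 and 0.0221 for Ern1) and Herpud1 (0.0400) in addition to Dnajb11 and Ppib, beside 10% of all genes. Over 15 alternatives Dnajb9 passed in 3, Ern1 in 2 and Herpud1 in 1. Atf6 differed by 0.16 (adjusted p = 0.304, limma).

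The difference between these day changes, the genotype by day interaction, passed for 0 members and for 0% of all genes (limma); 3 members had an unadjusted p under 0.05, beside 4.83% of all genes, and DESeq2 called 0 members. Those 3 were Plod2, with an interaction of 1.51 ± 0.54 (SE), Trib3 at 1.19 ± 0.38 and Atf6 at -0.33 ± 0.12. Their day changes in control and dMF1/2 are thus not shown to differ.

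Single libraries mattered for several of these calls. Without P14 control replicate 1, Plod2, Trib3, Dnajb9 and Edem1 no longer passed in control. Without P16 control replicate 1 only Atf6 and Dnajb11 did. Without P14 control replicate 2 Atf6, Dnajb11 and Plod2 passed, and without P16 control replicate 3 these and Ern1 did. Atf6 and Dnajb11 passed under all 15 alternatives of this comparison. With both P14 replicate 1 libraries left out, Edem1 (adjusted p = 0.0804, limma) and Trib3 (0.0647) no longer passed in control and Ppib did (7.09% of all genes), while in dMF1/2 Dnajb9 and Sec61b passed in addition to Dnajb11 and Ppib (6.1% of all genes). In dMF1/2 the count of 2 fell to 0 without P14 replicate 3, P16 replicate 1 or P16 replicate 3, and to 1 without P14 replicate 2.

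Other measures moved between the days. Reads of mitochondrial genes took 0.928 to 1.59% at P14 and 0.623 to 0.854% at P16. In control, 5 of 12 DP markers fell (among them Rspo3, Corin, Alpl and Lef1), beside 8.28% of all genes, and 3 of 10 dissociation stress genes rose, beside 6.26% of all genes: Atf3 and the near-identical copies Hspa1a and Hspa1b, cytosolic heat shock genes whose reads the counting could split. Of the markers of other cells, the endothelial Vwf (1.42) and the melanocyte gene Mitf (0.52) rose, and the endothelial Tek (-0.94) and the keratinocyte list gene Msx2 (-0.87) fell. In dMF1/2 0 genes of these marker lists passed. Their part in the changes of Ern1, Atf6, Dnajb9, Edem1, Plod2, Trib3 and Dnajb11 was not tested.

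**Figure D3:**
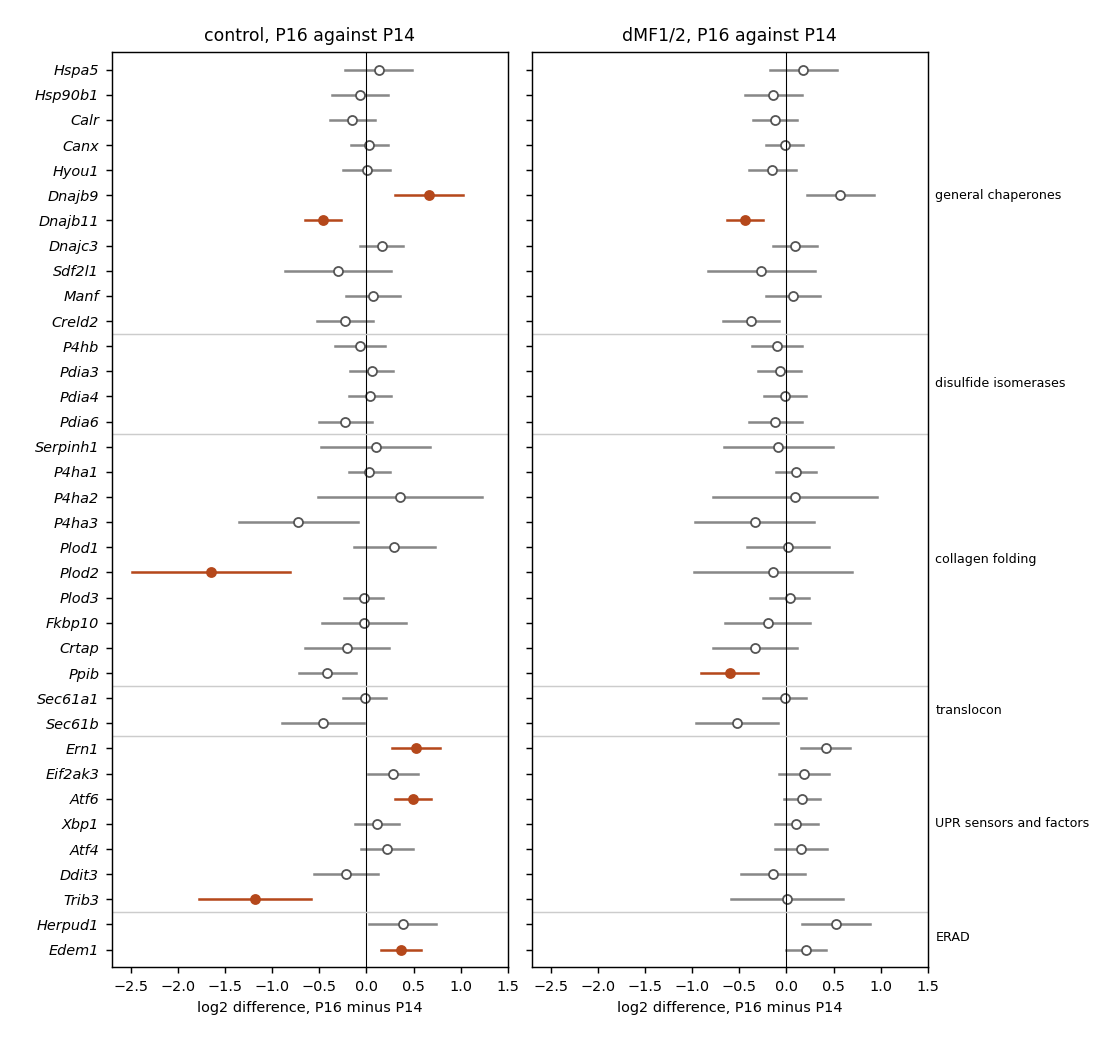
Log2 difference between P16 and P14 of each of the 36 members in control and in dMF1/2 DP, with its 95% interval, filled where the adjusted p was under 0.05. Control shows 4 filled points above 0 (Ern1, Atf6, Dnajb9, Edem1) and 3 below (Dnajb11, Plod2, Trib3); dMF1/2 shows Dnajb11 and Ppib filled below 0.

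**Figure D4:**
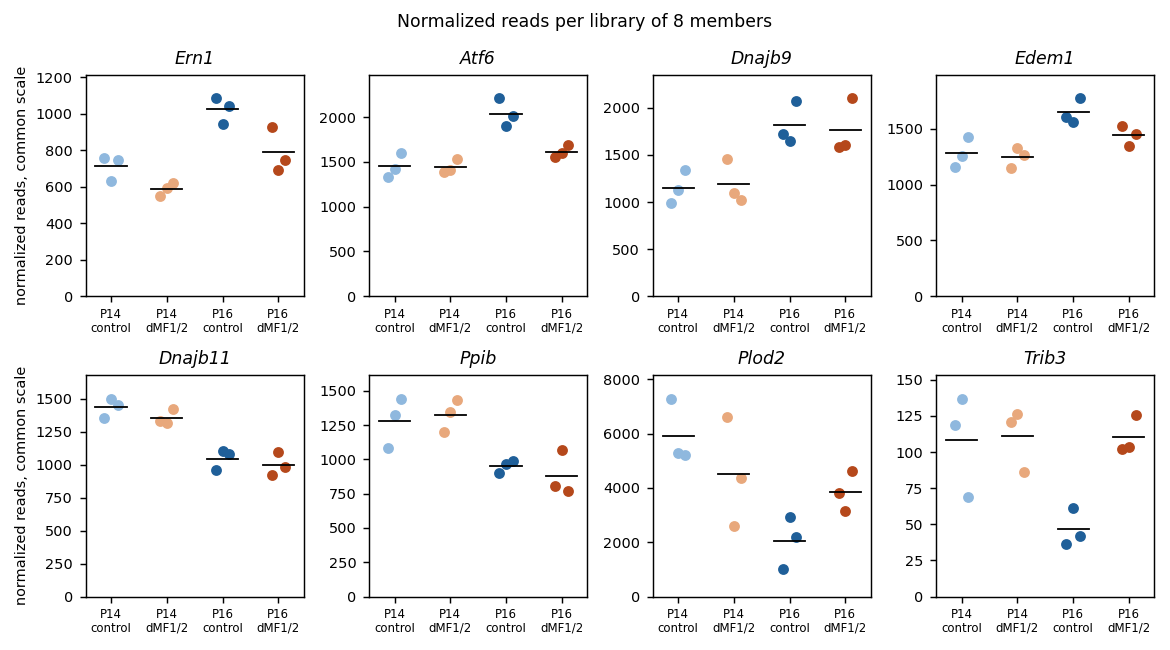
Normalized reads of 8 members in each of the 12 libraries, on the scale common to both days (points), with the mean of each group (lines); every vertical axis starts at 0. Trib3 is lowest and Ern1 and Atf6 are highest in the 3 P16 control libraries, Plod2 has its lowest mean there, and Dnajb11 is lower in all 6 P16 libraries than in all 6 P14 libraries.

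The other genes of the pathway were 109 genes in 5 lists. At P14 0 passed between genotypes by limma and 1 by DESeq2 (Vldlr), beside 0.0525% of all genes by limma and 1.55% by DESeq2. At P16 5 passed, beside 4.32% of all genes. Derl3, a retrotranslocation factor of ERAD, was lower in dMF1/2 (log2 difference -2.39 ± 0.36 SE, adjusted p = 0.0125, limma), and 1 of 18 ERAD genes passed. Of 24 UPR regulators and ATF4 targets, Wfs1 (0.79) and Cebpg (0.43) were higher, and Vldlr (-1.06) and Atf3 (-0.65) were lower. None of the 18 other collagen modification and oxidative folding genes, the 26 translocon and N-glycosylation genes or the 23 vesicle export genes passed at P16. From P14 to P16 in control, 11 passed, beside 14.5% of all genes. The ER oxidases Ero1lb (0.75) and Ero1l (0.34), the coat protein Sec24a (0.47) and the stress factor Atf3 (1.05) rose. The signal peptidase subunit Sec11c (-0.62), the oligosaccharyltransferase subunit Dad1 (-0.51), the chaperone Erp29 (-0.44), the glucosidase Mogs (-0.41), Tfg (-0.40) and the ERAD genes Os9 (-0.30) and Syvn1 (-0.22) fell. In dMF1/2, Dad1 (-0.34) and Os9 (-0.32) fell and 0 rose, beside 5.8% of all genes passing.

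The secretory load was read from 24 collagen genes and 36 other secreted matrix genes. Together these 60 genes took 25.2, 43.5 and 42.6% of all protein-coding reads in P14 control and 28.3, 44.9 and 44.1% in P14 dMF1/2. At P16 they took 42.4, 40.9 and 36.4% in control and 39.2, 43.0 and 34.6% in dMF1/2. The genotypes overlapped on both days (exact permutation test, two-sided, p = 0.5 at P14 and 0.8 at P16, where 0.1 is the smallest p that 3 against 3 allows), as did the days within each genotype (p = 1 in both). This test takes no account of the pairing. The cargo share was higher in dMF1/2 in all 3 same-numbered pairs at P14 and in 1 of 3 at P16, and without the replicate 1 libraries the P14 genotypes did not overlap. The P14 replicate 1 libraries were the only ones below 34.6%. Within the load, Tnn (-3.06), Tnc (-1.42) and Col7a1 (-0.81) were lower in dMF1/2 at P16, whereas Col1a1, Col3a1 and Col1a2, the 3 most abundant, differed by -0.11, -0.07 and -0.12 and did not pass. From P14 to P16 in control 3 of 24 collagen genes fell, Col13a1 (-1.64), Col5a3 (-0.72) and Col4a2 (-0.64). Of the 36 other matrix genes 2 rose, Tnn (2.17) and Thbs1 (1.06), and 3 fell, among them Mfap2 (-0.79) and Lox (-0.67). Of all genes 6.26% rose and 8.28% fell in this comparison. In dMF1/2 Col5a3 (-0.87) and Mfap2 (-0.75) fell, beside 3.97% of all genes.

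All 36 members together took 0.615 to 0.816% of the reads, so that 1.45 to 3.24 member reads stood against 100 cargo reads. Serpinh1 alone made up 52.2 to 64.8% of the reads of the collagen folding members in each library. Collagen folding members gave 1.05, 0.678 and 0.652 reads per 100 cargo reads in P14 control and 0.852, 0.639 and 0.618 in P14 dMF1/2. At P16 they gave 0.527, 0.667 and 0.730 in control and 0.567, 0.601 and 0.726 in dMF1/2. General chaperones gave 1.17, 0.498 and 0.583 in P14 control and 0.997, 0.464 and 0.479 in P14 dMF1/2, then 0.450, 0.594 and 0.778 at P16 in control and 0.552, 0.509 and 0.744 in dMF1/2. With all 3 libraries the genotypes overlapped on both days for both sets. Against the 57 cargo genes other than the 3 most abundant, however, collagen folding members gave 3.53, 3.38 and 3.39 reads per 100 cargo reads in P14 control and 3.29, 3.28 and 3.27 in P14 dMF1/2, without overlap. That separation rests on Plod2: without it control libraries gave 2.99, 3.14 and 3.14 and dMF1/2 libraries 2.83, 3.17 and 3.06, which overlap. With this denominator general chaperones overlapped on both days and collagen folding members overlapped at P16. At P14 both ratios were lower in dMF1/2 in all 3 same-numbered pairs, and without the replicate 1 libraries the P14 genotypes did not overlap in either set; with 2 libraries a group this was not tested. For the collagen folding set the lack of overlap without replicate 1 also rests on Plod2. Without Plod2, replicates 2 and 3 gave 0.629 and 0.604 in control and 0.616 and 0.578 in dMF1/2, which overlap. Replicate 1 gave 0.890 in control and 0.732 in dMF1/2, so against all cargo genes dMF1/2 stayed lower in all 3 same-numbered pairs. Against the 57 cargo genes, dMF1/2 without Plod2 was higher in replicate 2 (3.17 against 3.14). In each of the 4 groups the library with the least cargo had the highest ratio. Since the cargo sum is the denominator, that order is partly built in.

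In normalized reads many members were low in the 2 low-collagen libraries. Replicate 1 was below both other libraries of its group in both genotypes for 18 of 36 members, beside 21.9% of all genes. These were 6 of 10 collagen folding members, 2 of 11 general chaperones, 3 of 4 isomerases, both translocon and both ERAD members, and 3 of 7 UPR members (Atf6, Eif2ak3 and Xbp1). The collagen folding members among them were Serpinh1, P4ha2, Plod1, Fkbp10, Crtap and Ppib. Serpinh1 had 24816 normalized reads in P14 control replicate 1 against 44799 and 42433, and 24411 in P14 dMF1/2 replicate 1 against 46289.9 and 40895. P4ha2 had 1294 against 3743 and 3667, and 1569 against 3607 and 3577. The general chaperones among them were Dnajc3 and Manf. BiP had 14729 against 15063 and 20027 in control and 15153 against 14498 and 14677 in dMF1/2, and Canx 8266 against 8253 and 8856. Plod2 went the other way, with 7202 against 5199.6 and 5133 in control and 6518 against 2575 and 4310.0 in dMF1/2, as did Plod3 and Hyou1. The direction depended on the scale. In CPM all members together were highest in these libraries, as were the chaperone, isomerase, translocon and UPR sums. All members gave 8156 against 7257 and 7383 CPM in control, and 7587 against 7054 and 6899 in dMF1/2. Collagen folding members were lowest in CPM too, with 2644 against 2950 and 2777, and 2410 against 2869 and 2725. These are descriptions of 2 libraries picked out by their collagen share, in which DP markers were also highest (7875 and 8413 CPM, against 3762 to 4653 in the other P14 libraries). Keratinocyte markers (53.5 and 43.3 CPM, against 18.9 to 26.7) and endothelial markers (77.9 and 59.6, against 39.4 to 46.8) were also highest there, dermal sheath markers were lowest (815 and 864, against 1216 to 1586), and the mitochondrial share was highest (1.36 and 1.59%, against 0.928 to 1.29%). Their part in the members' values was not tested.

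**Figure D5:**
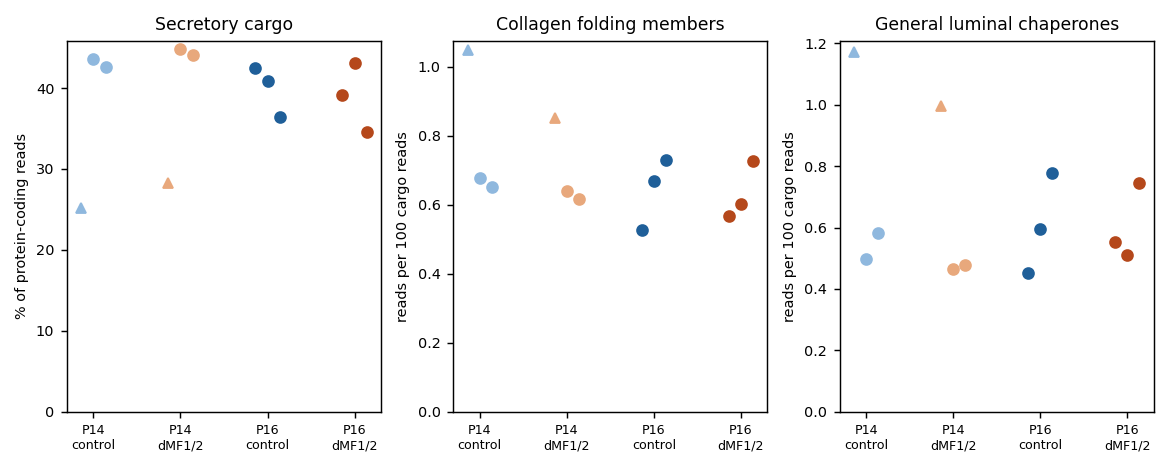
Share of protein-coding reads on the 60 secretory cargo genes (left), and reads of the collagen folding members (middle) and general luminal chaperones (right) per 100 cargo reads, with 1 point per library; triangles are the P14 replicate 1 libraries. Outside the triangles the cargo share lies between 34.6 and 44.9%. At P16 the points of control and dMF1/2 overlap in every panel, and at P14 they overlap only where the triangles are included.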

How the data were processed

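The members and the lists were chosen with earlier results of these data known. RNA-seq of ribosome-depleted RNA was made with a strand-marking kit. Per the labels and the study's methods, the authors trimmed reads with Trimmomatic, aligned them to mm10 with TopHat2, counted reads per gene with HTSeq (GRCm38.p4) and normalized with DESeq2. The deposited values are a signal, gene counts divided by size factors, in 1 table per day (15209 and 15334 protein-coding genes). Other deposited columns hold the authors' comparisons (mean, log2 fold change and its error, a test statistic or score, p-value and adjusted p-value) and were not used.

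Reads were recovered from the deposited values, of which 100% were whole multiples of 1 read (tolerance 0.001 reads), and the 14986 shared genes were rescaled by the median of ratios for comparisons between days. Tests used limma 3.58.1 with trend in R 4.3.3 on log2(normalized reads + 1), so low genes are understated, keeping genes whose mean reached 10, with Benjamini-Hochberg adjustment over all genes tested. All 36 members passed this filter. Genotypes were compared within a day on 6 libraries. Day changes and the interaction came from 1 model of 12. Alternatives were edgeR 4.0.16, DESeq2 1.42.0, other scalings, pseudocounts and filters, a replicate block and left-out libraries. The test was checked on simulated data. Cargo sums were taken in CPM, reads per 1000000 protein-coding reads.

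Replicates were separate mice, and same-numbered libraries of both genotypes deviated together: the correlation of their deviations from the group means was 0.586, 0.389 and 0.304 at P14 and 0.256, 0.293 and 0.311 at P16, each over 0.1, although the labels do not say what a number marks. Named genes were all members, up to 4 called genes of largest change per other list and comparison, the 3 most abundant cargo genes, and Fgfr1 and Fgfr2.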

Additional observations from a re-analysis of the deposited data

Results flagged for a closer look

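Plod2 was flagged because dMF1/2 was below control in all 3 same-numbered pairs at P14 and above control in all 3 at P16. The median pair difference in log2 normalized reads was -0.25 at P14 and 1.09 at P16. The interaction of genotype and day for Plod2 was 1.51 ± 0.54 (SE) with an unadjusted p of 0.0172 and an adjusted p of 1.0 (limma), so a difference between the days was not shown.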

How the results depend on the processing

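Of the counts of members passing, that at P14 (0) and that of the interaction (0) held under every alternative run, and the other 3 did not. At P16 the count of 1 was 2 with DESeq2 and 3 with the replicate block in limma or, chosen after seeing the data, in edgeR, and 0 to 1 with 1 library left out; the block changed no other call of a member. In control from P14 to P16 the count of 7 was 2 to 7 with 1 library left out. In dMF1/2 the count of 2 was 5 with DESeq2 (which called 10% of all genes, against 5.8% with limma), 0 with only the 6 libraries of the genotype, 4 without both P14 replicate 1 libraries (chosen after seeing the data) and 0 to 4 with 1 library left out. The count of other pathway genes was 1 rather than 0 at P14 with DESeq2 or the block, 9 rather than 5 at P16 with the block, and 4 rather than 2 in dMF1/2 between days with DESeq2. The causes were not tested.

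The direction of the ratio of the cargo share between groups depended on the setting; 3 against 3 libraries cannot give an exact permutation p below 0.1, so no setting could pass. Without the 3 most abundant cargo genes the ratio of dMF1/2 to control at P14 was 0.9986 rather than 1.05, and that of P16 to P14 in control 0.941 rather than 1.08. The latter was 0.926 without both P14 replicate 1 libraries. With 1 library left out the ratios ran from 0.908 to 1.20 (P14), 0.924 to 1.03 (P16), 0.926 to 1.18 (control) and 0.875 to 1.08 (dMF1/2). With 3 mice per group, the median 95% interval of a member reached 0.32 to either side on the log2 scale at P14 and 0.27 at P16.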
